A study of Salmo salar with 30 samples.

Results

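The comparison set 5 Atlantic salmon fed soybean meal with package 2 (soybean meal + P2) against 5 salmon fed the control feed, in the distal intestine. These 10 fish were chosen by the diet named in the sample labels, out of 30 fish on 6 diets, with 1 microarray per fish. Package 2 held 0.1% β-glucan, 0.05% nucleotides and 0.01% butyrate, and the control feed, high in fish meal, held no package. The other fish used here for reference were fed soybean meal + P1 (package 1, with 0.01% butyrate and 1.5% arginine), soybean meal alone, corn gluten + P2 or corn gluten alone, again 5 fish each. The trial used 18 tanks at 11.2 °C, stocked with salmon of 177 g, and lasted 67 days. The labels do not say which fish shared a tank, so p-values are too small if tank-mates were alike. The question was what remained of the response to soybean meal, and what was new, when the package was in the feed.

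The distal intestine is the hindmost gut segment of salmon, where enterocytes take up intact macromolecules and where immune cells are abundant. In salmon it is the segment known to become inflamed on soybean meal, with shortened mucosal folds, loss of the absorptive vacuoles of enterocytes and infiltration of leukocytes. β-glucans are cell wall polysaccharides of yeast and other fungi that immune cells recognise, nucleotides are building blocks of RNA and DNA for dividing cells, and butyrate is a short-chain fatty acid that gut epithelium uses as fuel. These are reasons such additives are tried in plant-based feeds, given here as background.

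Signal is given as log2 of the processed spot intensity minus the 75th percentile of the array, so that 0 is the 75th percentile and 1 unit is a doubling. Kept for testing were 13577 of 14841 probes, those flagged well above background on 5 or more of the 30 arrays. Between 12701 and 13286 probes were well above background on the soybean meal + P2 arrays, against 12491 to 13376 on the control arrays. Probes carry identifiers only, and 0 of the 14841 matched the gene table used here. No gene is therefore named, and the tissue could not be checked against marker genes. Across probes, soybean meal + P2 fish correlated with each other at 0.965 to 0.986, control fish at 0.963 to 0.984, and fish of both diets with each other at 0.957 to 0.981. In bulk tissue, a change in the number of cells of a type and a change in RNA per cell cannot be told apart.

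With package 2 in the soybean meal feed, transcript levels in the distal intestine still differed widely from those on the control feed. In limma, a linear model with moderated variances, 2319 of 13576 probes passed a Benjamini-Hochberg adjusted p of 0.05, which is 17.1% of those tested. Of these, 1222 rose (9.00%) and 1097 fell (8.08%) relative to control. The probes that rose did so by a median of 0.54 log2 units, and those that fell had a median difference of −0.69, while the median of all tested probes was −0.04. Changes over 2-fold were seen at 195 probes that rose and 279 that fell. Over 8-fold, 11 probes rose and 14 fell. For 1261 of the 2319 probes (54.4%) the values of both diets did not overlap, against 11.1% of all tested probes. All 5 soybean meal + P2 fish lay above all 5 control fish at 636 of the 1222 probes that rose (5.42% of all probes did), and below them at 625 of the 1097 that fell (5.68% of all probes did). These counts use the values that made the calls and are a description.

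The balance of rises and falls depended on the processing. Probes that rose made up 52.7% of the calls here. With scaling alone changed, the share was 65.7% when the array median was subtracted and 56.8% after quantile normalization. On the authors' values, which differ in signal summary, background and scaling, it was 62.6%. With another background correction, normexp, applied to spot medians, it was 46.2%, so that falls outnumbered rises. The median of all tested probes was −0.30 in that setting, against −0.04 here. With slide as a block 1156 probes rose and 1154 fell. A fit to only the 10 fish of both diets, with fewer fish to estimate the spread, called 1439 probes, of which 678 rose.

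**Figure D1:**
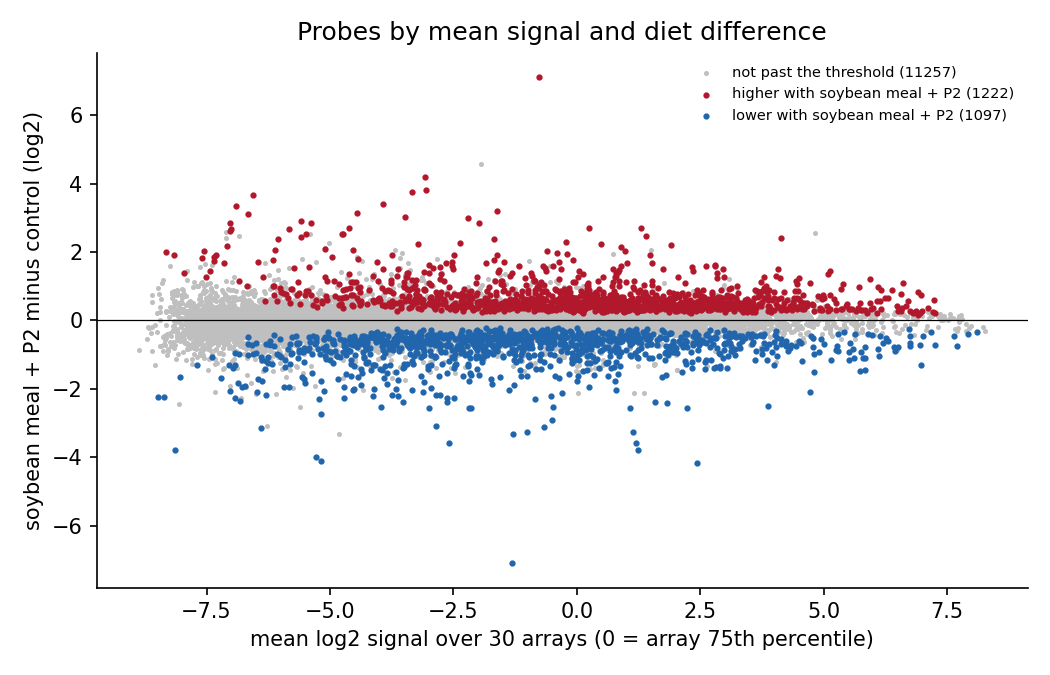
Each point is a probe, by its mean log2 signal over the 30 arrays (x axis) and its log2 difference of soybean meal + P2 minus control (y axis). Red points rose (1222 probes), blue points fell (1097 probes) and grey points did not pass the threshold, and 1 probe at each extreme stands alone at 7.11 and −7.10.

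Slides are the glass carriers that hold several arrays each. Soybean meal + P2 fish 1 and 2 shared a slide with control fish 3 and 4, and soybean meal + P2 fish 5 shared one with control fish 5. On the first slide, 2314 of the 2318 called probes with values had the direction seen over all fish, at a median of 0.68 log2 units in that direction. On the other, 2299 of 2312 did, at a median of 0.79. Fish of both slides took part in choosing these probes. With slide as a block 2310 probes passed.

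Bright probes were called more often than dim ones, and the brighter ones mostly as rises. The kept probes were split by mean signal over all 30 arrays into 5 equal bins. In the dimmest bin 5.2% were called, 56 as rises and 85 as falls. In the brightest bin 31.0% were called, 554 as rises and 287 as falls. The share of rises among calls was lowest, at 34.9%, in the second dimmest bin and highest, at 65.9%, in the brightest. Precision moved with brightness: the median SE of the difference was 0.379 log2 units in the dimmest bin and 0.128 in the brightest. The called differences were larger among dim probes, with a median size of 1.08 in the dimmest bin and 0.52 in the brightest. How far precision sets the shares was not tested. The bins were made with the processing used here only, and the balance of rises and falls over all probes changed with the processing.

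**Figure D2:**
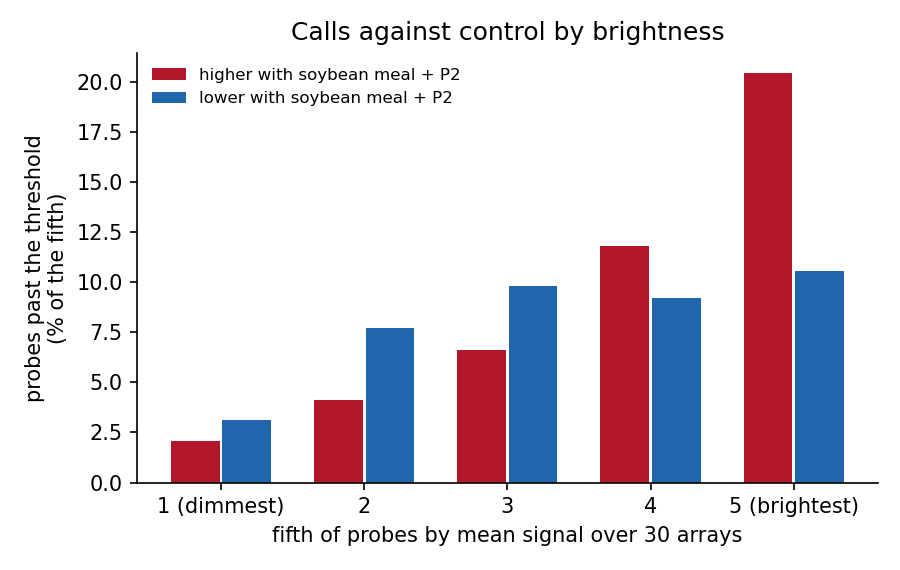
Bars give the percent of probes in each of 5 bins of mean signal (x axis, dimmest to brightest, 2715 or 2716 probes each) that rose (red) or fell (blue) in soybean meal + P2 fish relative to control fish. Falls outnumber rises in the 3 dimmer bins, and rises outnumber falls in the 2 brighter ones.

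The spread between fish of a diet was alike in both. Over all kept probes the median SD was 0.272 log2 units in soybean meal + P2 fish and 0.265 in control fish. Over the 2319 called probes it was 0.231 in soybean meal + P2 fish and 0.232 in control fish.

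The largest rise was at Ssa#S47729315. Its log2 signal was 1.65, 3.10, 2.08, 2.56 and 4.22 in soybean meal + P2 fish 1 to 5, against −4.43, −4.12, −4.03, −4.70 and −4.65 in control fish. All 5 soybean meal + P2 fish thus lay above the array's 75th percentile and all 5 control fish far below it. The difference was 7.11 ± 0.44 log2 units (SE, limma adjusted p = 4.50e-11), about 138-fold. It was 5.37 with the normexp background correction, a model that keeps dim signals positive. In soybean meal fish without a package the probe averaged 2.52 ± 0.47 (SD, n = 5), and soybean meal + P2 differed from them by 0.20 ± 0.44 (SE, limma adjusted p = 0.82).

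Ssa#GRASP221219529 had −0.33, −1.39, −2.30, −1.25 and −0.28 in soybean meal + P2 fish, against −5.67, −5.51, −4.37, −5.10 and −5.89 in control fish. The lowest soybean meal + P2 fish was well above the highest control fish. It rose by 4.19 ± 0.38 (SE, limma adjusted p = 9.74e-08), about 18.3-fold, and by 1.95 with the normexp background correction. Its difference from soybean meal alone was 0.07 ± 0.38 (SE, limma adjusted p = 0.932).

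The deepest fall was at Ssa#S30235658, with −5.08, −5.19, −3.60, −4.69 and −5.19 in soybean meal + P2 fish, against 0.98, 2.55, 2.86, 2.99 and 2.34 in control fish. Its signal was still well above background in all 5 soybean meal + P2 fish. The difference was −7.10 ± 0.51 (SE, limma adjusted p = 9.36e-10), about 137-fold, and −5.51 with the normexp background correction. Against soybean meal alone it was 0.08 ± 0.51 (SE, limma adjusted p = 0.944).

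Ssa#S30236403 also fell, but unevenly between fish. It had −2.11, −0.01, 2.33, 2.28 and 1.90 in soybean meal + P2 fish, against 4.44, 5.23, 5.01, 5.28 and 5.26 in control fish. Fish 1 and 2, which shared a slide, were lowest, and the other 3 soybean meal + P2 fish lay clearly above them. Every soybean meal + P2 fish stayed below every control fish. The difference was −4.17 ± 0.67 (SE, limma adjusted p = 0.000162), about 17.9-fold. Within the slide of fish 1 and 2 it was −6.20, and within that of fish 5 it was −3.37. In soybean meal fish the probe lay between −1.51 and 0.37. The difference of soybean meal + P2 from them, 1.22 ± 0.67 (SE, limma adjusted p = 0.284), did not pass.

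**Figure D3:**
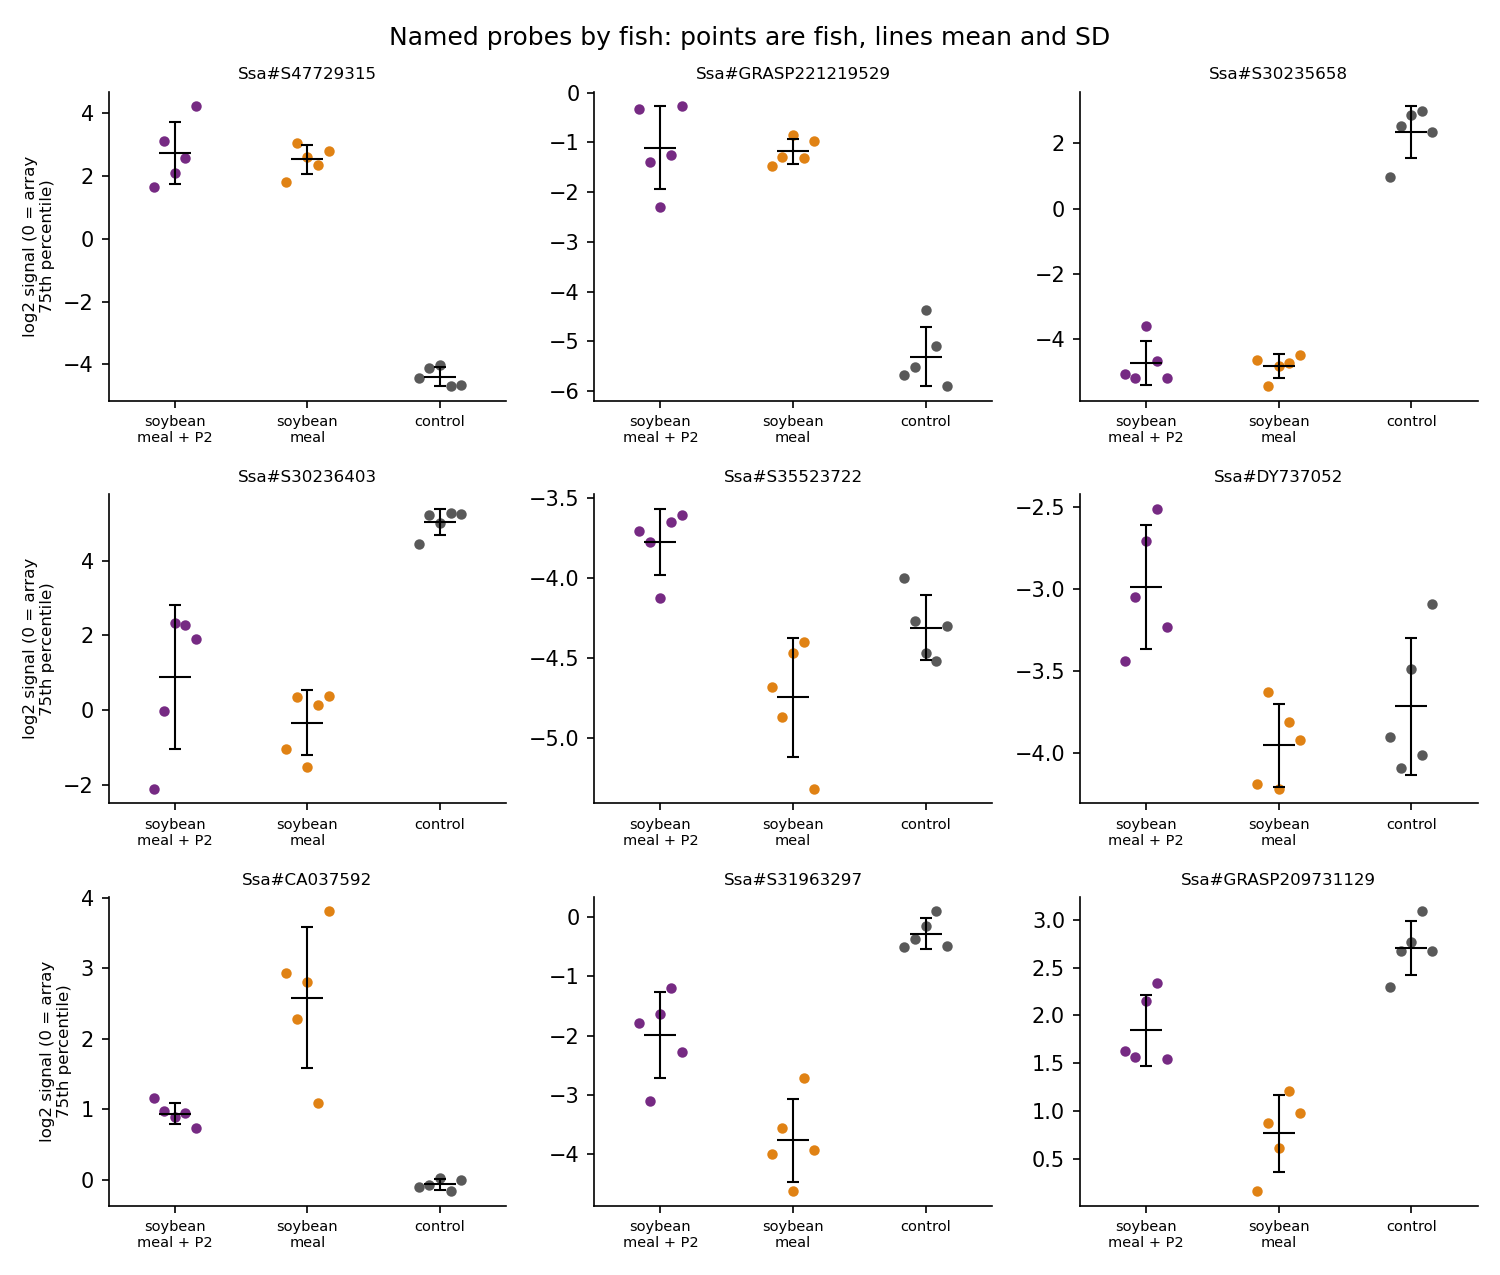
Log2 signal (y axis, 0 is the array's 75th percentile) of 9 probes in soybean meal + P2, soybean meal and control fish, with 1 point per fish and the mean and SD in black. In the first 3 panels the soybean meal + P2 fish sit near the soybean meal fish and away from control, and in the fourth panel 3 of the 5 lie above all soybean meal fish and below all control fish. Then come 2 probes higher than in both other diets, and 3 probes whose soybean meal + P2 mean lies between those of the other diets.

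To see whether the called probes also responded to soybean meal in fish on neither side of the comparison, soybean meal alone was set against corn gluten. Between these 10 fish 3325 probes (24.5%) passed. The reference here was another plant feed and not the control feed. Effects of corn gluten may thus be among these differences, and responses that both plant feeds share may be missing. The spread of each probe was estimated over all 30 arrays and used in every comparison. Probes with a small spread thus pass more easily in both, which raises the shares that passed in both by an amount not tested. Of the 1222 probes that rose with soybean meal + P2, 1170 (95.7%) were higher with soybean meal than with corn gluten, and 755 (61.8%) passed there as higher. Those 755 made up 53.1% of the 1422 probes that passed as higher (10.5% of all tested). Of the 1097 probes that fell, 1062 (96.8%) were lower with soybean meal, and 768 (70.0%) passed there as lower, which was 40.4% of the 1903 that did (14.0% of all tested). Set against soybean meal + P1 minus corn gluten (3602 probes called, 26.5%), 2240 of the 2319 (96.6%) had 1 direction in both and 1618 (69.8%) passed there in it, which was 44.9% of the 3602. Over all tested probes 71.5% had 1 direction in both. For soybean meal minus corn gluten, 67.5% of all tested probes had 1 direction in both comparisons. The log2 differences correlated at 0.533 across the 13576 tested probes, which are not independent replicates and share array design and background correction.

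Median sizes lay close together in both sets of fish. The probes were called and grouped by their size here, which favours large values here and not in the other fish. The pairs of values are thus a description and do not measure how much of the response was kept. The 25 probes with changes over 8-fold had a median size of 3.59 log2 units here and 3.68, in the direction seen here, in soybean meal minus corn gluten. For the 75 probes with changes of 4- to 8-fold the values were 2.28 and 2.25, and for the 374 with changes of 2- to 4-fold 1.28 and 1.25. For the 1845 smaller ones they were 0.53 and 0.44. Of the 25, 24 had the direction seen here and 22 passed in it. The one that did not is Ssa#S30295480, chosen after its values were seen and described in the last section.

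**Figure D4:**
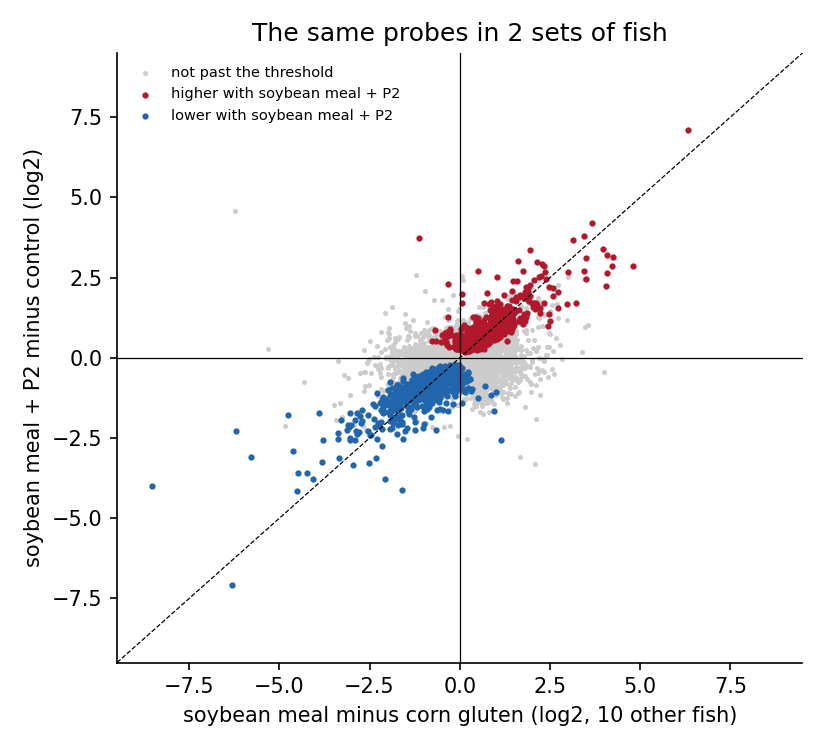
Log2 difference of soybean meal minus corn gluten in 10 other fish (x axis) against that of soybean meal + P2 minus control (y axis), with 1 point per probe, red and blue for probes that rose or fell with soybean meal + P2, and a dashed line of equal values. Red points lie mostly upper right and blue points mostly lower left, with 2232 of the 2319 in 1 direction in both sets of fish.

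Some 789 called probes (461 rises and 328 falls) did not pass between soybean meal and corn gluten. Their changes were smaller, with a median size of 0.51 here and 0.21 in the same direction in soybean meal minus corn gluten, and 709 of the 789 had 1 direction in both. Tested directly, 8 of the 789 (1.01%) differed between soybean meal + P2 and soybean meal, where 1.24% of all tested probes did. A probe past the threshold here and not in the other fish is thus not shown to be a new response.

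Given with corn gluten, package 2 was tested in other fish. Soybean meal + P2 minus control shares no fish with corn gluten + P2 minus corn gluten. Between corn gluten + P2 and corn gluten, limma called 0 of 13577 probes, with 1028 at an unadjusted p below 0.05. The 1222 probes that rose with soybean meal + P2 had a median of −0.01 log2 units there, and the 1097 that fell had 0.02. Of all 2319, 46.4% had 1 direction in both, against 46.3% of all tested probes.

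The direct comparison of soybean meal + P2 with soybean meal shows where the package feed differed from soybean meal alone. It called 168 probes (1.24%), 145 higher (1.07%) and 23 lower (0.169%) with package 2, and 35 of these also passed against control, which is 1.51% of the 2319 and 20.8% of the 168. The 2 comparisons share their soybean meal + P2 fish. The 35 split into 12 probes higher than in both other diets, 22 lower than control but higher than soybean meal, and 1 higher than control but lower than soybean meal. In limma 0 probes were lower than in both. Of the 13576 probes tested against control, 195 were higher than in both other diets at an unadjusted p below 0.05 in both comparisons, and 142 were lower. The shared soybean meal + P2 fish raise the number that pass both in 1 direction, by an amount not tested. Nothing is read from the 195 and 142. These counts rested on few fish and on the processing. With slide as a block 2 probes passed, after normexp 2, and on the authors' values 10. The count was 9, 102, 36, 11 and 459 when soybean meal + P2 fish 1, 2, 3, 4 or 5 was left out, and 3, 256, 59 and 92 when soybean meal fish 1, 2, 3 or 4 was.

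The other 2284 of the 2319 probes did not pass against soybean meal. The 1209 of these that rose had a median soybean meal + P2 minus control difference of 0.53 log2 units and a median soybean meal minus control difference of 0.54, with a median of 0.01 for soybean meal + P2 minus soybean meal. The 1075 that fell had medians of −0.69 for soybean meal + P2 minus control and −0.81 for soybean meal minus control, with 0.13 for soybean meal + P2 minus soybean meal. Both differences from control share the control fish. The probes were chosen for passing against control and not against soybean meal, so their medians do not measure how much response was kept. Not passing does not show that the feeds acted alike.

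The 12 probes higher than in both other diets had small soybean meal + P2 minus control differences, from 0.39 to 0.89 log2 units with a median of 0.64. Their soybean meal minus control differences ran from −0.44 to 0.15, and 1 of the 12 passed there, as lower with soybean meal. In corn gluten + P2 minus corn gluten, 7 of the 12 were positive, with a median of 0.01.

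Ssa#S35523722 had −3.71, −3.78, −4.13, −3.65 and −3.61 in soybean meal + P2 fish, against −4.68, −4.87, −4.47, −4.40 and −5.32 in soybean meal fish and −4.00, −4.27, −4.47, −4.52 and −4.30 in control fish. All 5 soybean meal + P2 fish were above every soybean meal fish, and 4 were above every control fish. It rose by 0.97 ± 0.15 over soybean meal and by 0.53 ± 0.15 over control (SE, limma adjusted p = 0.00495 over soybean meal and 0.0152 over control). After normexp these were 0.15 and −0.15, so that the direction against control turned and neither passed. The median of all probes in that setting was itself −0.30 against control. In soybean meal + P1 fish, whose package also holds butyrate, the probe averaged −3.82 ± 0.05 (SD, n = 5). Soybean meal + P1 also passed against control, by 0.49 ± 0.15 (SE, limma adjusted p = 0.0157). Corn gluten fish averaged −3.99 ± 0.33 and corn gluten + P2 fish −3.97 ± 0.10 (SD, n = 5 each). Soybean meal minus control was −0.44 ± 0.15 (SE, limma adjusted p = 0.0294). The difference from soybean meal thus includes a fall with soybean meal alone.

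Ssa#DY737052 had −3.44, −3.05, −2.71, −2.51 and −3.23 in soybean meal + P2 fish, against −4.19, −3.63, −4.22, −3.81 and −3.92 in soybean meal fish and −3.90, −4.09, −3.49, −4.01 and −3.09 in control fish. It was above every soybean meal fish in all 5, while control fish 5 overlapped with the package fish. It rose by 0.96 ± 0.20 over soybean meal and by 0.72 ± 0.20 over control (SE, limma adjusted p = 0.0252 and 0.0131). Both calls were lost with slide as a block and with the normexp background correction. The call against soybean meal was also lost on the authors' values and without soybean meal + P2 fish 3 or 4 or soybean meal fish 1 or 3, and that against control when the fit held only soybean meal + P2 and control fish. Within the slides that held both diets, the difference from control was 0.50 (fish 1 and 2) and −0.14 (fish 5). In soybean meal + P1 fish the probe averaged −3.79 ± 0.13 (SD, n = 5). Corn gluten fish averaged −3.47 ± 0.30 and corn gluten + P2 fish −3.31 ± 0.36 (SD, n = 5 each), both above the control mean of −3.71.

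At 22 probes the soybean meal + P2 mean lay above that of soybean meal and below that of control. The differences from soybean meal were 0.46 to 1.77 log2 units (median 0.69), and those from control −1.71 to −0.33 (median −0.63). Their soybean meal minus control differences were −3.48 to −0.81.

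Ssa#S31963297 had −1.79, −3.10, −1.63, −1.20 and −2.27 in soybean meal + P2 fish, against −3.99, −3.56, −4.63, −2.72 and −3.93 in soybean meal fish and −0.51, −0.37, −0.15, 0.10 and −0.49 in control fish. Every soybean meal + P2 fish was below every control fish, and fish 2 overlapped with the soybean meal fish. The difference from control was −1.71 ± 0.42 and that from soybean meal 1.77 ± 0.42 (SE, limma adjusted p = 0.00604 and 0.0408).

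Ssa#GRASP209731129 had 1.63, 1.56, 2.15, 2.34 and 1.54 in soybean meal + P2 fish, against 0.16, 0.88, 0.61, 1.21 and 0.98 in soybean meal fish and 2.30, 2.67, 2.77, 3.09 and 2.67 in control fish. Soybean meal + P2 fish lay above every soybean meal fish, and fish 4 reached into the range of control. It fell by 0.86 log2 units relative to control, with a difference of −0.86 ± 0.25, and rose by 1.08 ± 0.25 relative to soybean meal (SE, limma adjusted p = 0.0192 and 0.0396). The call against control was lost without soybean meal + P2 fish 2 or 5 or control fish 4. The calls of both probes against soybean meal were lost with slide as a block, after normexp, on the authors' values and when the fit held only these diets. They were also lost without soybean meal + P2 fish 1, 3 or 4 or soybean meal fish 1 or 3, and that of Ssa#S31963297 without soybean meal fish 5.

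The 1 probe higher than control but lower than soybean meal was Ssa#CA037592. It had 1.15, 0.97, 0.88, 0.94 and 0.73 in soybean meal + P2 fish, against 2.93, 2.28, 2.80, 1.08 and 3.81 in soybean meal fish and −0.10, −0.08, 0.02, −0.17 and 0.00 in control fish. The soybean meal + P2 fish formed a tight group (SD 0.15, n = 5), while soybean meal fish varied widely (SD 1.00, n = 5), and soybean meal fish 4 overlapped with the package fish. The difference from control was 1.00 ± 0.30 and that from soybean meal −1.64 ± 0.30 (SE, limma adjusted p = 0.0196 and 0.0169). The call against control did not hold (log2 difference 0.69) once slide entered the fit. That against soybean meal was lost when soybean meal fish 1 was left out or the fit held only these diets. Soybean meal + P1 fish averaged 1.25 ± 0.42 (SD, n = 5) at this probe, also between control and soybean meal fish. Their difference from control was 1.32 ± 0.30 (SE, limma adjusted p = 0.00136).

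How much of the soybean meal response was present in each fish was measured on probes chosen without these fish. Soybean meal + P1 and corn gluten fish were apart at 3602 probes (26.5%), of which 1842 (13.6%) were raised with soybean meal + P1 and 1760 (13.0%) were lowered. For each other fish, the mean signal was taken over the raised and over the lowered probes, relative to the mean of control fish. Their difference (raised minus lowered), multiplied by 0.5, is called the response score, in log2 units. The choice used the spread estimated over all 30 arrays, but no level of the fish whose scores are given. Both packages held butyrate, so soybean meal responses that package 1 removed may be missing from these probes. Effects of package 1 or of corn gluten may be among them.

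The response score was 0.480, 0.527, 0.362, 0.391 and 0.637 in soybean meal + P2 fish 1 to 5, against 0.201, 0.090, −0.034, −0.188 and −0.070 in control fish. Every soybean meal + P2 fish was above every control fish. The soybean meal + P2 mean was 0.479 ± 0.110 (SD, n = 5), with the control mean at 0 by construction and an SD of 0.150. Fitted together with slide, the diet difference was 0.583 ± 0.074 (SE). That fit also held the soybean meal + P1 and corn gluten fish, on which the probes were chosen. Its slide terms and SE thus rest partly on those fish. Within the 2 shared slides, without those fish, the diet difference was 0.615 (2 fish each) and 0.707 (1 fish each).

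Soybean meal fish scored 0.599, 0.770, 0.823, 0.603 and 0.586. Soybean meal + P2 fish 1 to 4 were below all of them, and fish 5 was above 3 of the 5. The soybean meal mean was 0.676 ± 0.112 (SD, n = 5), so that soybean meal + P2 fish held 70.9% of it on average. Singly they held between 53.6% (fish 3) and 94.2% (fish 5). Fish 1 and 2 shared a slide (71.0% and 77.9%), as did fish 3 and 4 (53.6% and 57.8%). Differences between fish and between slides cannot be told apart in this range. The difference of soybean meal + P2 from soybean meal was −0.197. With slide as a term, in the fit that also held the fish on which the probes were chosen, it was −0.195 ± 0.084 (SE). On the 1 slide with both diets it was −0.210 (2 fish against 1). The gap was wider on the lowered side under the scaling used here. Over the raised probes soybean meal + P2 fish averaged 0.436 ± 0.080 and soybean meal fish 0.551 ± 0.107, or 79.1% of the soybean meal level. Over the lowered probes they averaged −0.523 ± 0.141 and −0.801 ± 0.128 (SD, n = 5 each), or 65.3%. A shift in array scaling moves both sides alike, so it narrows 1 gap and widens the other, and cancels only in the score. Over all probes, the median of soybean meal + P2 minus soybean meal was 0.03 here. It was 0.05 when the array median was subtracted and −0.14 after normexp. Only the score was repeated under other processing, so whether the lowered side keeps the wider gap was not tested.

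Corn gluten + P2 fish scored between −0.115 and 0.098, within the range of control fish.

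**Figure D5:**
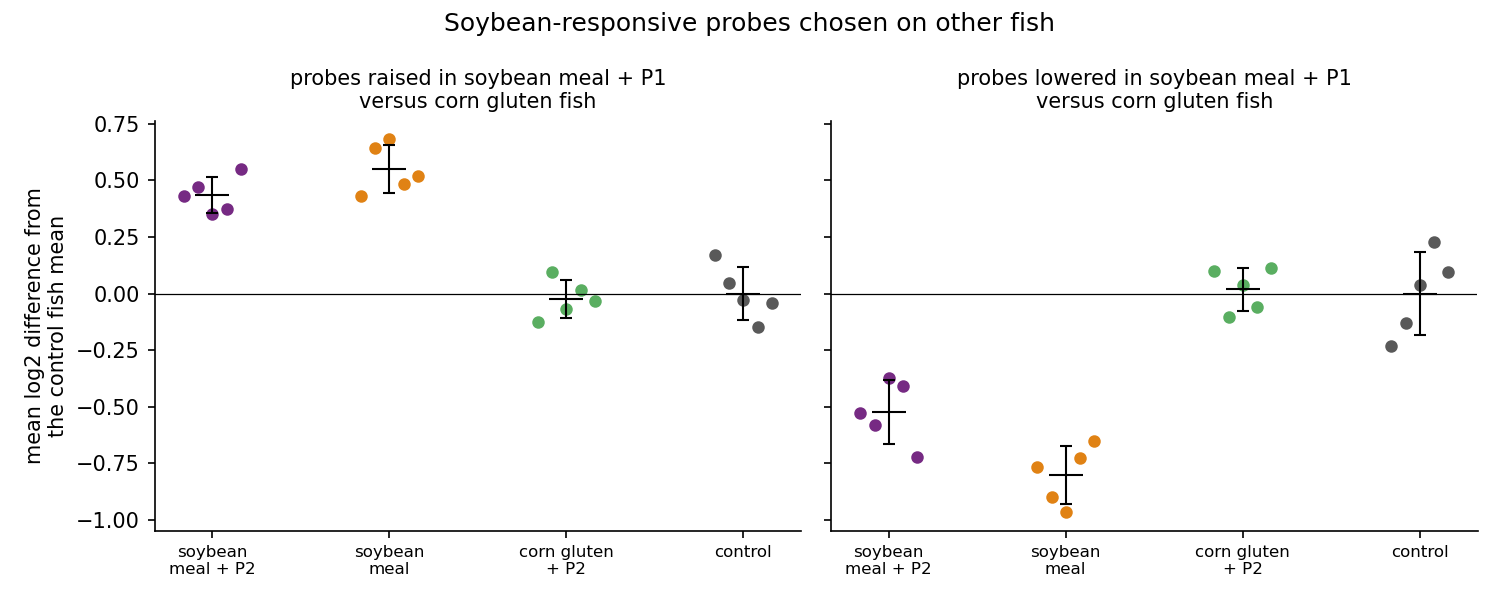
Mean log2 difference from the control mean (y axis) over 1842 raised (left) and 1760 lowered probes (right), which were chosen on soybean meal + P1 and corn gluten fish, with 1 point per fish and the mean and SD in black. The soybean meal + P2 means lie between those of soybean meal and control on both sides, with the fish clear of control and overlapping with soybean meal.

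Few probes were detected in only 1 of the 2 diets compared. The count took probes with all 5 fish of a diet well above background and 0 of 5 of the other. Of these 2 diets, 7 probes were detected only in soybean meal + P2 fish and 1 only in control fish. Of these 8, 6 passed in limma, where 17.1% of all tested probes did, but the 8 were picked on the signals that limma tests, so nothing is read from that count. The 7 probes were not particular to the package feed. They were also well above background in 3 to 5 soybean meal fish and in 2 to 5 soybean meal + P1 fish. Folds for probes detected in only 1 of the 2 diets are lower bounds under the processing used here only. On each array of the diet without detection, the level used was the dimmest signal that counted as well above background, or that of the probe where it was brighter.

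Ssa#S35548105 had −4.75, −6.80, −5.35, −6.08 and −5.63 in soybean meal + P2 fish, and −8.61, −9.23, −9.07, −6.82 and −9.19 in control fish, where it was not well above background. It was at least 2.34-fold higher (limma adjusted p = 0.00117). It was well above background in all 5 soybean meal and all 5 soybean meal + P1 fish, and in 0 of the 10 corn gluten and corn gluten + P2 fish.

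Ssa#S35549491 averaged −5.77 ± 0.92 in soybean meal + P2 fish and −8.44 ± 0.46 in control fish (SD, n = 5 each), at least 2.26-fold higher (limma adjusted p = 0.00014). With the normexp background correction these 2 probes had −0.29 and −0.27, opposite in direction and near the median of all probes, and neither passed. Ssa#S35549491 was also well above background in 5 soybean meal, 4 soybean meal + P1, 1 corn gluten and 1 corn gluten + P2 fish.

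Ssa#TC105268 was detected in control fish only, with −7.85, −7.27, −8.13, −7.91 and −8.91 in soybean meal + P2 fish, against −6.13, −6.36, −6.02, −4.90 and −6.36 in control fish. Under the processing used here it was at least 2.48-fold lower, a bound of 1.31 log2 units (limma adjusted p = 0.00012). On the authors' values the log2 difference was −0.90 (limma adjusted p = 0.0163). After normexp it was −0.72 and did not pass. Both are smaller in size than the bound. It was well above background in all 10 corn gluten and corn gluten + P2 fish, and in 1 soybean meal and 1 soybean meal + P1 fish.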

How the data were processed

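Total RNA was amplified and labelled with Cy3, per the labels. Per the file headers, Agilent Feature Extraction 12.0.1.1 gave the deposited spot intensity, which is linear, has background removed and was not scaled across arrays. Other columns hold marks, also per the file headers, for spots well above background and outlier spots. The authors' deposited value table, an alternative only, holds linear intensity. Each column was spot median minus local background median times 1 factor per array (0.5221 to 0.7643), with 97.6% or more of values within 1 unit of that product and column medians of 73.0 to 101.0.

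Outlier spots (598) were set to missing, and no named probe lost a value by this. A kept probe without any control value was not tested. One limma 3.58.1 model (R 4.3.3) with 1 coefficient per diet was fitted to all 30 arrays, with eBayes without trend and Benjamini-Hochberg adjustment within each comparison. The fit was tested on simulated data. Spots have no mean signal column, so the normexp correction (offset 50) used spot medians. Signal over background and the number of arrays limit precision.

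Up to 2 higher and 2 lower probes are named in each of 4 classes: passed against control with all 10 arrays well above background (ranked by the difference from control), passed against control and soybean meal in the same direction or in opposite directions (both ranked by the size of the difference from soybean meal), and detected in 1 diet only (ranked by the bound). The members, lists and classes were chosen with earlier results of these data known. Prepared gene lists found 0 members and were not used. Fish numbers did not pair fish: the correlations of deviations between soybean meal + P2 and control fish of 1 number ran from −0.233 to 0.179.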

Additional observations from a re-analysis of the deposited data

Results flagged for a closer look

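Of 43 groups of 5 values checked for 1 fish far from the rest, 2 stood out, where chance flags about 1 in 20. Both were control fish 4 at dim probes. At Ssa#S35548105 control fish 4 had −6.82, while the other control fish lay between −9.23 and −8.61. At Ssa#TC105268 it had −4.90, against −6.36 to −6.02 in the other control fish.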

How the results depend on the processing

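The count of 2319 probes against control stayed within 1.5 times under other scalings, background correction, filters, slide as a block, an intensity trend and array weights, and without any 1 fish (1677 to 2528). It was 1439 in a fit to only the 2 diets, 1121 at an adjusted p below 0.01 and 152 with a required change of 0.5 log2 units. All 2319 kept their sign with slide as a block, and 2191 did with the normexp background correction. Fewer of the 2319 still passed, 1884 with slide as a block and 1702 after normexp, so similar counts do not mean the same probes. The count against soybean meal, 168, ran from 3 to 459 without 1 fish. After normexp it was 2, on the authors' values 10, with slide as a block 2, 258 with an intensity trend, 5 at an adjusted p below 0.01 and 0 with a required change of 0.5 log2 units (431 at an unadjusted p below 0.05). The causes were not tested. With fish number as a replicate block the counts were 2378 and 201, and the numbers did not pair the fish. The response score difference of 0.479 ran from 0.433 to 0.526 without 1 fish, and was 0.610 on probes chosen at an adjusted p below 0.01. The difference from soybean meal, whose alternatives were added after seeing the data, ran from −0.241 to −0.155. The 8 probes detected in only 1 of the 2 diets became 9 to 23 without 1 fish. They became 87 with 4 of 5 against 1 of 5 arrays, and 0 with the looser detection flag. Of 422 repeats for single probes, 372 kept their call at an adjusted p of 0.05, 47 lost it and 3 turned round. The 3 turned with the normexp background correction: Ssa#S35523722 (−0.15), Ssa#S35548105 (−0.29) and Ssa#S35549491 (−0.27). Repeats of the 0.01 threshold were also judged at 0.05, so they count as kept by construction. At 0.01, Ssa#S35523722, Ssa#DY737052, Ssa#CA037592 and Ssa#GRASP209731129 did not pass against control. Against soybean meal, Ssa#DY737052, Ssa#CA037592, Ssa#S31963297 and Ssa#GRASP209731129 did not. With a required change of 0.5 log2 units, Ssa#S35523722, Ssa#DY737052, Ssa#CA037592, Ssa#S31963297 and Ssa#GRASP209731129 did not pass against control.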

Other observations

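At some probes the fish of a diet lay far apart, and 2 of these were chosen after their values were seen. Ssa#S30295480 had −1.93, −1.41, −1.74, −1.56 and −2.60 in soybean meal + P2 fish, against −6.13, −5.29, −5.48, −4.71 and −6.37 in control fish. It passed as a rise of 3.75 ± 1.07 log2 units (SE, limma adjusted p = 0.0157), about 13.4-fold. In each of the other diets, both high and low fish occurred. Soybean meal fish had −1.35, −2.01, −5.97, −6.15 and −4.87, soybean meal + P1 fish −1.81, −5.22, −1.67, −5.57 and −1.76, corn gluten + P2 fish −1.56, −6.12, −1.03, −2.33 and −0.99, and corn gluten fish −1.71, −1.20, −6.22, −1.88 and −3.63. Soybean meal minus corn gluten was −1.14 ± 1.07 (SE, limma adjusted p = 0.465), opposite in sign to the difference from control.

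Ssa#TC93758 did not pass against control (limma adjusted p = 0.211). It had 1.31, 0.73, 1.28, 2.07 and −9.63 in soybean meal + P2 fish, against −9.08, −8.00, −6.10, −6.39 and 2.41 in control fish. Soybean meal + P2 fish 5 and control fish 1 and 2 were not well above background, so no size is given for the difference. Above 0 were 4 of 5 soybean meal + P2 fish and 1 of 5 control fish. Soybean meal + P1 fish had −5.93, −8.63, −7.92, 1.04 and −9.60, and soybean meal fish −9.66, 1.82, −9.56, −3.05 and 1.26, with values at both ends and between them. All 10 corn gluten and corn gluten + P2 fish were high, between 1.78 and 3.39.

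A gap of over 2 log2 units between neighbouring fish in at least 2 of the 4 diets outside the comparison was found at 6 of the 100 probes called with changes over 4-fold, at 0 of the 2219 called with smaller changes, and at 279 of the 11257 not called. Ssa#S30295480 was the 1 called probe with such a gap in all 4 diets. Such gaps widen the spread that limma uses, so probes with smaller changes could hardly pass there. Nothing is read from the counts by size. What separates the fish was not tested.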
